A study of Mus musculus with 107 samples.

Results

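The genes described here encode the proteasome: its core and regulatory subunits, the chaperones that assemble them, and its activators and inhibitor. They were taken by symbol, as every measured gene named Psma, Psmb, Psmc, Psmd, Psme, Psmf or Psmg followed only by a number. The rule found 48 genes among 21564 gene symbols and used no measured value, and 3 other symbols beginning with Psm (Psmc3ip, Psme2b and Psme3ip1) were left out by it. The material was single mouse eggs, sequenced with Smart-seq2, a method that reads along the full length of polyadenylated transcripts and does not keep their strand. Eggs homozygous for a mutation of Mos (mos -/-) formed the groups M1 (22 eggs), M2 (18 eggs) and M3 (21 eggs), names that the labels do not define. A further 17 wildtype eggs, called activated, were matured for 15 to 16 h and then held for 2 h in 10 mM strontium chloride without calcium, which starts development without sperm. The remaining 29 eggs were wildtype and untreated. All eggs came from C57BL/6J females of 2 to 3 months that had received 5 IU of PMSG, were isolated in 2.5 µM milrinone, which holds oocytes before meiotic resumption, were matured in culture without it, and were collected 38 to 40 h after germinal vesicle breakdown. The labels name no mutant allele beyond mos -/- and tie no egg to an animal. Eggs were sequenced in batches 1 and 2, and activated eggs were in batch 2 only. By library name, batch 1 eggs of both genotypes shared a plate series (scO), while in batch 2 the mutant eggs were on plates 1 and 2, the activated eggs on plate 4 and the wildtype eggs on plate 3, so plate and group cannot be told apart within batch 2.

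The proteasome is the barrel-shaped protease that destroys proteins marked with ubiquitin. Its core is built of outer alpha rings, which gate the entrance, and inner beta rings, which hold the cutting sites, while the regulatory particle has an ATPase ring and scaffold subunits at its base and a lid that removes the ubiquitin. Exit from the meiotic arrest of the egg needs the proteasome to destroy cyclin B and securin, and the MOS kinase acts upstream of MAP kinase signalling to hold that arrest. The comparisons ask how transcripts of this machine differ in eggs without MOS function and in eggs activated by strontium.

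Because single eggs of a group are not known to be separate animals, the counts of all eggs sharing a group and a batch were added, which gave 9 sums: 6 mutant, 1 activated and 2 wildtype. Totals ran from 44 to 9132471 counts per egg, and 3 mutant eggs held fewer than 10000. Sums ran from 5436993 counts (24 wildtype eggs of batch 2) to 36209306 (5 wildtype eggs of batch 1). Median totals in batch 2 were 503732 to 756480 counts in the mutant groups, 796582 in activated eggs and 207420 in wildtype eggs, so the smallest depth lies on the wildtype side of each comparison within that batch. All 13 oocyte markers were detected, with summed levels of 5824 to 16570 CPM (counts scaled to a common library total with TMM) in mutant sums, 5790 in the activated sum, and 11216 and 16864 in wildtype sums. Granulosa and cumulus markers summed to 206 to 301 CPM in mutant sums, 100.4 in the activated sum, and 327 and 338 in wildtype sums, with 1 of 14 markers (Ptx3) at 0 in all eggs. Blood and immune markers summed to 6.43 to 37.5 CPM, 45.5 CPM and 12.2 to 24.2 CPM in mutant, activated and wildtype sums, and 4 of 13 (Ptprc, Tyrobp, Hba-a1 and Hba-a2) were at 0. The part of these marker levels in the results was not tested. Mos itself held 0.892 to 12.5 CPM in mutant sums, 4.92 in the activated sum, and 7.32 and 36.8 in wildtype sums, a log2 fold change of -2.10 ± 0.40 (SE) for mutant over wildtype (edgeR adjusted p = 0.0029). Mutant eggs thus still held Mos reads. In activated eggs, which are wildtype in genotype, Mos was lower as well, with a log2 fold change of -2.71 over wildtype.

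Together the 48 genes took well under 1% of the counts of each egg. Over the 104 eggs of at least 10000 counts the median share was 0.357%, with extremes of 0.124% and 0.615%. In batch 1 the median was 0.359% in 9 mutant eggs and 0.373% in 5 wildtype eggs. In batch 2 it was 0.37% in 49 mutant eggs, 0.385% in 17 activated eggs and 0.294% in 24 wildtype eggs, with ranges that overlapped between all groups. Fewer members had a read in the shallower eggs of batch 2: medians were 42 to 42.5 in mutant groups and 41 in wildtype eggs of batch 1, and 35.5 to 38 in mutant groups, 38 in activated eggs and 26 in wildtype eggs of batch 2.

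Levels of different members can be set side by side only per length, so TMM-scaled CPM was divided by the kilobases of exon in the annotation. In wildtype eggs, 42 members had reads in both sums, and their mean levels per kilobase differed by up to 339-fold. Psma7, a subunit of the outer alpha ring, had the highest mean level, with 134.9 and 174 CPM per kb in the wildtype sums of batches 1 and 2. It was followed by the scaffold subunit Psmd2 (mean 109.2 CPM per kb), the lid subunit Psmd3 (98.3), the beta ring subunit Psmb2 (75.9) and the core assembly chaperone Psmg1 (73.4). The wildtype sums differed by more than these steps for Psmd2 (146 and 72.2 CPM per kb), so the order of the leading members, the top place included, is not resolved. The lowest of the 42 were Psmg3, a core assembly chaperone, at a mean of 0.456 CPM per kb, the lid subunit Psmd13 at 0.544 and the ATPase Psmc2 at 0.643. Subunits that sit in the same ring thus had very unequal measured levels: alpha ring genes spanned 1.14 to 154 CPM per kb and beta ring genes 0.7 to 75.9 CPM per kb. Some of these levels are uncertain. Psmb7, the lowest of the beta ring, overlaps Nek6 on the other strand, and Psma5 and Psmb5 share sequence with other transcripts. The part of read assignment in this spread was not tested.

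**Figure D1:**
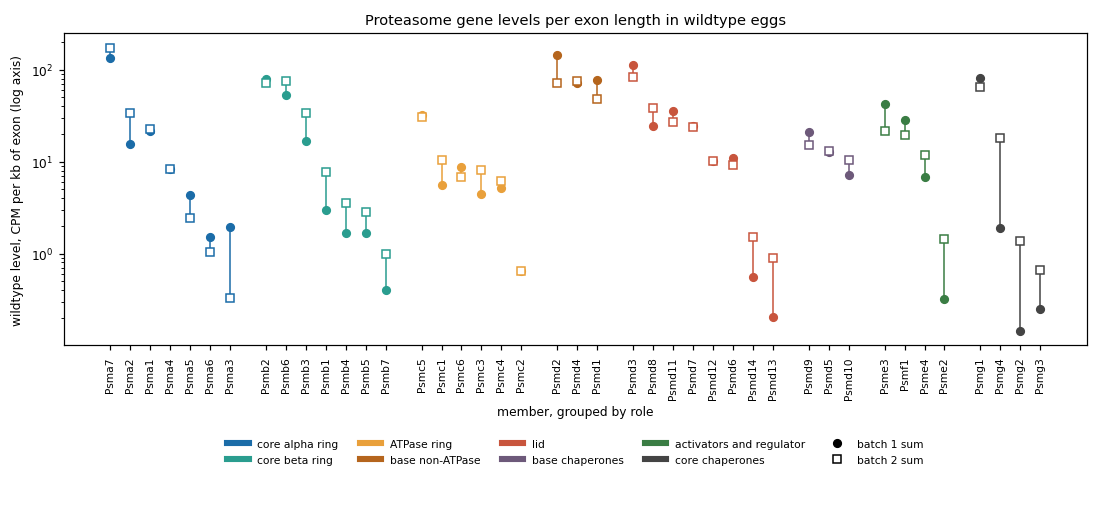
Level per kilobase of exon of the 42 members with reads in both wildtype sums (CPM per kb, log axis), ordered within role; filled circles are the batch 1 sum, open squares the batch 2 sum, joined by a line. Within each ring or subcomplex of more than 3 members the levels spread over a factor of 10 or more, from 154 CPM per kb for Psma7 to 0.456 for Psmg3.

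Stored egg transcripts are switched on and off through their poly(A) tails, which are governed by short elements near the end of the 3' UTR, and Smart-seq2 primes on those tails. The elements of some members that the comparisons turn on are therefore shown, from the GENCODE M21 transcripts (GRCm38). They are printed 5' to 3' on the transcript strand, as windows of up to 30 bases, with the polyadenylation signals (AATAAA or ATTAAA) and cytoplasmic polyadenylation elements (TTTTAT or TTTTAAT) in capitals. Psmb3 and Psmd3 are among the members lower in mutants, and Psme3, Psmd12, Psmc2 and Psmd10 are among the higher ones.
Psmb3 (chromosome 11, 97713475 to 97713500, plus strand): ctTTTTAATAAAattgcctttctttc
Psmd3 (chromosome 11, 98695943 to 98695972, plus strand): caattatgatttttaaacAATAAAaagttc
Psme3 (chromosome 11, 101323480 to 101323509, plus strand): ttaccatgtcaagaaattATTAAAaataca
Psmd12 (chromosome 11, 107498105 to 107498134, plus strand): tagAATAAAaaaaccaaaAATAAAaaacca
Psmc2 (chromosome 5, 21803748 to 21803777, plus strand): ttgttgccaccgcacaaaAATAAAagattt
Psmd10 (chromosome X, 140948433 to 140948462, minus strand): atttcaagtattacaaacAATAAActgttg
All 6 windows lie in the annotated 3' UTR. In Psmb3 the TTTTAAT overlaps the AATAAA, and no other gene of these 6 had either cytoplasmic element in the last 150 bases. Over all members, TTTTAT or TTTTAAT was found there on the transcript strand in 6 of 48 genes, 12.5%, against 23.4% of the 12921 tested genes with an annotated 3' UTR. The 6 genes were Psma1, Psma5, Psmb1, Psmb3, Psmg1 and Psmg3. A polyadenylation signal was found in 91.7% of members, in 90.7% of tested members and in 80.2% of tested genes. Annotated 3' UTRs of members were short, with a median of 239 bases (270 in tested members) against 962 bases over tested genes. A shorter UTR gives less sequence to search, and these matches are letters in an annotated end, not measured sites.

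In mos -/- eggs, proteasome transcripts moved in both directions. Of the 43 members with enough counts to be tested, 9 rose and 3 fell against wildtype (edgeR quasi-likelihood test, Benjamini-Hochberg adjusted p under 0.05), and 31 did not pass. The fit held all 9 sums, the activated sum included, with batch as a term, and compared the 6 mutant with the 2 wildtype sums. Over all 13832 genes tested 9.38% passed, 5.36% higher and 4.03% lower. The members' median log2 fold change was 0.22, against 0.06 over all genes tested. The 43 had to hold enough counts in some group to be tested, so this count does not describe all 48 members. All 6 mutant sums lay above both wildtype sums for 9 members and below both for 3, where 10.2% and 6.86% of all tested genes did so.

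**Figure D2:**
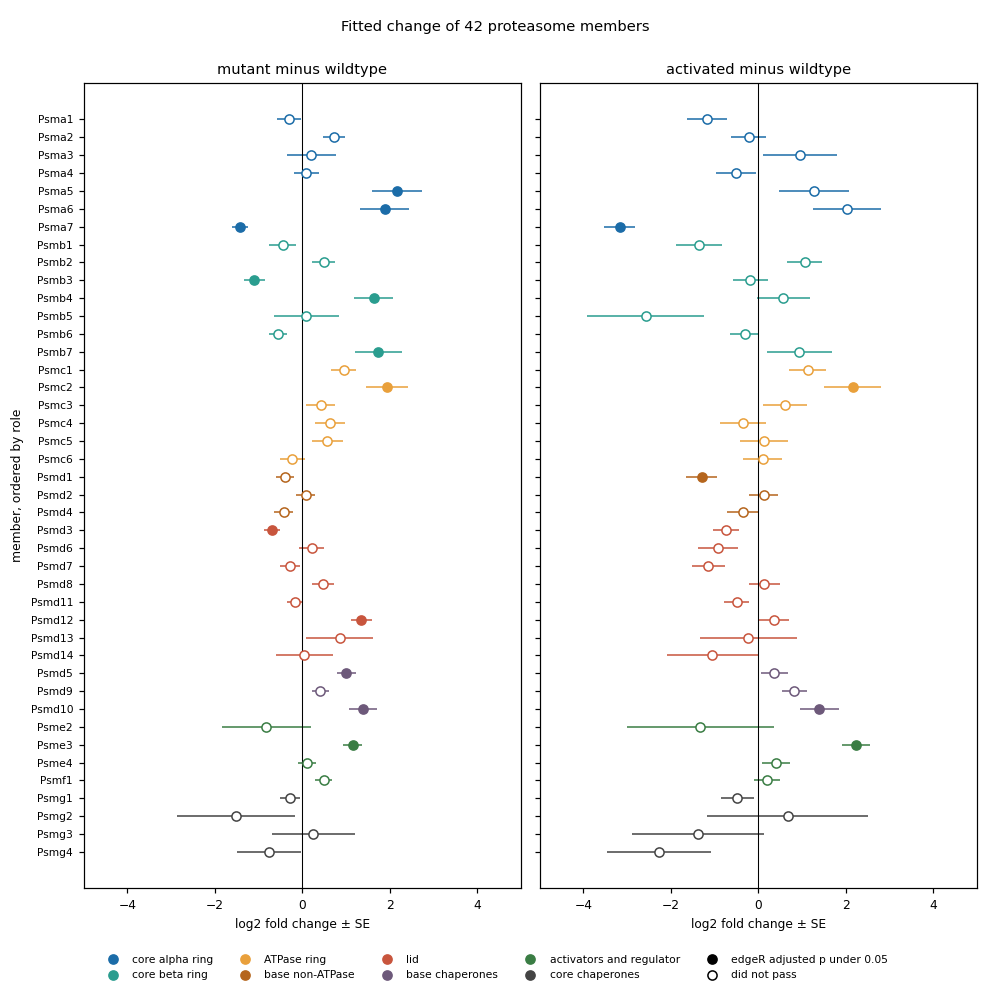
Fitted log2 fold change ± SE of 42 tested members, ordered by role, for mutant over wildtype (left) and activated over wildtype (right); filled points passed an edgeR adjusted p of 0.05. Psmb11, without a wildtype read, is not drawn. Psma7 lies far to the left in both panels, at -1.42 and -3.17, while Psme3, Psmc2 and Psmd10 lie to the right in both.

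The alpha ring showed the widest split. Psma7 (chromosome 2, 180036374 to 180042433) held 182, 171 and 100.1 CPM in the M1, M2 and M3 sums of batch 1 and 221, 202 and 204 CPM in those of batch 2, against 414 and 534 CPM in the wildtype sums of batches 1 and 2. Every mutant sum was below both wildtype sums. It averaged 180 ± 42.8 CPM in mutant sums (SD, n = 6) and 474 CPM over the 2 wildtype sums, a log2 fold change of -1.42 ± 0.18 (SE, edgeR adjusted p = 0.00014), with -1.45 within batch 1 and -1.36 within batch 2. Psma5 and Psma6, its neighbours in the list of alpha subunits, were higher in mutants instead. Psma5 held 45.8, 20.7 and 3.72 CPM in the M1, M2 and M3 sums of batch 1 and 38, 24.3 and 21.6 CPM in batch 2, against 5.71 and 3.21 CPM in wildtype, so that the M3 sum of batch 1 fell among the wildtype values (log2 fold change 2.16 ± 0.58, edgeR adjusted p = 0.0392). Psma6 held 3.32 to 9.77 CPM in mutant sums, all above the 1.86 and 1.28 CPM of wildtype (1.88 ± 0.56, edgeR adjusted p = 0.0412). Both rest on few wildtype reads: in batch 2 the wildtype eggs held 15 counts of Psma5, in 4 of 24 eggs, and 6 counts of Psma6, all in 1 egg. For Psma5, 50% of the 50-base stretches of its transcripts also occur in other annotated transcripts, and its exons overlap the opposite-strand gene 1700010K24Rik, so its count is uncertain. The other 4 alpha ring genes did not pass, with log2 fold changes from -0.31 to 0.72.

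In the beta ring, Psmb4 and Psmb7 rose and Psmb3 fell. Psmb7 is a catalytic subunit, the one with trypsin-like activity, and Psmb3 and Psmb4 are structural. Psmb3 held 31.5, 14.3 and 14.5 CPM in the M1, M2 and M3 sums of batch 1 and 38.3, 28.5 and 37.2 CPM in batch 2, against 38.4 and 78.5 CPM in wildtype. Each mutant sum lay below both wildtype sums, by little in the case of M1 of batch 2 (log2 fold change -1.10 ± 0.24, edgeR adjusted p = 0.00897, with -0.94 and -1.18 within batches 1 and 2). Of its 50-base stretches, 17.8% occur in other annotated transcripts. Psmb4 held 9.91 to 21.1 CPM in mutant sums against 3.23 and 6.84 CPM in wildtype, without overlap (1.63 ± 0.44, edgeR adjusted p = 0.0264). Without the wildtype sum of batch 1 the Psmb4 value fell to 0.90 ± 0.50 (edgeR adjusted p = 0.325). Psmb7 held 1.61 to 12.8 CPM in mutant sums against 1.37 and 3.42 CPM in wildtype, and the ranges overlapped (1.73 ± 0.54, edgeR adjusted p = 0.0495). Its exons overlap Nek6 on the other strand, and 15 of 20 alternative settings took its adjusted p past 0.05. The remaining catalytic genes did not pass: Psmb6, of the caspase-like site, held 53 to 102.7 CPM in mutant sums and 99.7 and 141.8 CPM in wildtype (-0.56, edgeR adjusted p = 0.0954), and Psmb5, of the chymotrypsin-like site, held 0.85 to 3.72 CPM in mutant sums and 1.52 and 2.57 CPM in wildtype (0.09 ± 0.75). For Psmb5, 54.1% of 50-base stretches are shared with other transcripts, among them Psmb5-ps.

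In the base of the regulatory particle, Psmc2 was the single ATPase of 6 to pass. It held 15.5, 6.62 and 4.23 CPM in the M1, M2 and M3 sums of batch 1 and 26.1, 24 and 25.4 CPM in batch 2, against 3.26 and 3.21 CPM in wildtype (log2 fold change 1.94 ± 0.48, edgeR adjusted p = 0.0168). All mutant sums were above wildtype, by more in batch 2 (2.97) than in batch 1 (1.43), where the difference between batches did not pass (1.54 ± 0.93, edgeR adjusted p = 0.65). The other 5 ATPase genes had log2 fold changes of -0.23 to 0.94. None of the scaffold and receptor subunits Psmd1, Psmd2 and Psmd4 passed, with log2 fold changes of -0.42 to 0.07. Of the 3 chaperones that assemble this base, 2 rose, and all mutant sums of each of the 3 lay above wildtype. Psmd5 held 187, 209 and 126 CPM in the M1, M2 and M3 sums of batch 1 and 257, 184 and 191 CPM in batch 2, against 92.7 and 95.1 CPM in wildtype (1.01 ± 0.22, edgeR adjusted p = 0.00677). Psmd10, the chaperone also known as gankyrin, held 33, 17.1 and 16.4 CPM in batch 1 and 52.1, 47.8 and 59.7 CPM in batch 2, against 10.4 and 15.2 CPM in wildtype (1.38 ± 0.32, edgeR adjusted p = 0.01). Psmd9 did not pass (0.41 ± 0.19, edgeR adjusted p = 0.208).

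In the lid, Psmd12 rose and Psmd3 fell, while the other 6 genes, among them the deubiquitinase Psmd14, did not pass, with log2 fold changes of -0.29 to 0.85. Psmd12 held 77.4, 65 and 55.5 CPM in the M1, M2 and M3 sums of batch 1 and 74.1, 76.9 and 68 CPM in batch 2, against 27.1 and 27.2 CPM in wildtype. The mutant sums lay close together and well above both wildtype sums (log2 fold change 1.34 ± 0.24, edgeR adjusted p = 0.00184, with 1.28 and 1.43 within batches 1 and 2). Psmd3 held 334, 304 and 357 CPM in the M1, M2 and M3 sums of batch 1 and 249, 310 and 245 CPM in batch 2, against 561 and 415 CPM in wildtype, again without overlap (-0.70 ± 0.18, edgeR adjusted p = 0.018). Among activators, Psme3, the nuclear activator REG gamma that opens the core without ubiquitin, held 186, 350 and 326 CPM in the M1, M2 and M3 sums of batch 1 and 137.5, 126 and 155 CPM in batch 2, against 126 and 63.1 CPM in wildtype. Each mutant sum was above the wildtype sum of its own batch, although the batches differed so much that M2 of batch 2 lay just below wildtype of batch 1 (1.15 ± 0.22, edgeR adjusted p = 0.00325, with 1.19 and 1.14 within batches 1 and 2). The activators Psme2 and Psme4, the inhibitor Psmf1 and all 4 core assembly chaperones Psmg1 to Psmg4 did not pass.

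**Figure D3:**
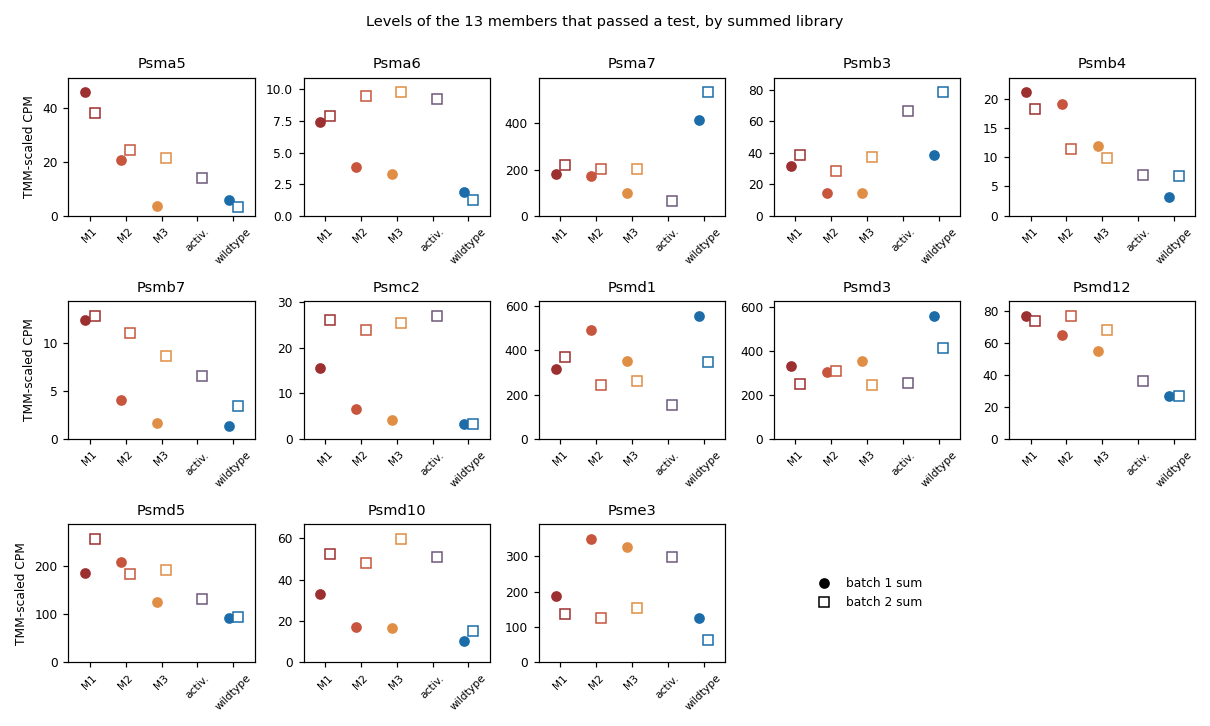
TMM-scaled CPM of the 13 members that passed for mutants as a whole or for activated eggs against wildtype, 1 point per sum (filled circle batch 1, open square batch 2; activ. is activated). Psma7, Psmb3 and Psmd3 have all mutant points below wildtype, and Psmd12 has mutant points of 55.5 to 77.4 CPM over wildtype points of 27.1 and 27.2 CPM.

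These calls rest on few sums. No member passed when the batch term was left out, where 51 genes in all were called, and 5 passed when sums were made per plate. Without the wildtype sum of batch 2, 5 members passed, and without M1 of batch 1, 7 did; Psma7, Psmd12 and Psme3 kept their calls when any single sum was left out.

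Each mutant group was also set against wildtype, the 3 comparisons sharing the same wildtype sums. In M1, 8 members were higher and 1 lower, where 5.65% of all genes passed, 3.86% higher and 1.79% lower. In M2, 3 were higher and 2 lower (4.58% of all genes, 3.31% higher and 1.27% lower), and in M3, 3 were higher and 2 lower (5.25% of all genes, 3.25% higher and 2% lower). The members' median log2 fold changes were 0.51, 0.20 and 0.06 in M1, M2 and M3, against 0.05, -0.01 and 0.12 over all genes. With each sum left out, the median ran from 0.44 to 0.64 in M1, from -0.09 (without M2 of batch 2) to 0.28 in M2, and from -0.17 (without M3 of batch 2) to 0.09 in M3, where it was also -0.09 without the wildtype sum of batch 2. Psma7 was lower by -1.23 ± 0.24, -1.34 ± 0.24 and -1.70 ± 0.25 in M1, M2 and M3 (edgeR adjusted p = 0.00622, 0.00442 and 0.000636), and Psmd12 was higher by 1.48 ± 0.28, 1.38 ± 0.28 and 1.18 ± 0.27 (edgeR adjusted p = 0.0042, 0.00822 and 0.0171). Psma2, an alpha ring gene that did not pass for mutants as a whole, was higher in M1 by 1.24 ± 0.31 (edgeR adjusted p = 0.0251). No member passed for M1 when its batch 1 sum was left out.

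A direct comparison of the mutant groups used sums per plate, with the plate as a block, in which 40 members could be tested. No member and no gene of 11009 passed in either M2 minus M1 or M3 minus M1 (edgeR, 0% called), and 4 and 5 members had an unadjusted p under 0.05, as did 690 and 866 genes. DESeq2 called 28 and 60 genes, among them 0 and 1 members, and limma voom 0 and 12 genes without a member. Few members had a positive log2 fold change: 7 of 40 in M2 minus M1 and 5 of 40 in M3 minus M1, where 48.7% and 51.1% of all genes did. Their medians were -0.27 and -0.38, where the medians of all genes were -0.02 and 0.01. The alpha ring showed this in batch 1, where its 7 genes summed to 521, 337 and 204 CPM in M1, M2 and M3, but not in order in batch 2, at 618, 513 and 540 CPM. Without the M1 sum of the batch 1 plate, which holds 4 eggs, the medians were -0.03 and -0.19, and 19 and 10 of 41 members had a positive value.

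The mutant effect was compared between batches in a fit of genotype, batch and their interaction over 12338 genes. M1, M2 and M3 of a batch were taken as replicates of mutant in this fit. The wildtype sums were assumed to vary like them, so the residual spread, and each SE below, comes from differences among the mutant groups. No member and no gene passed (edgeR, 0% called), 4 members and 1147 genes had an unadjusted p under 0.05, DESeq2 called 27 genes as higher and 91 as lower, with no member among them, and limma voom called 0. For Psma7 the log2 effect in batch 2 differed from that in batch 1 by 0.10 ± 0.42, for Psmd12 by 0.14 ± 0.40 and for Psme3 by -0.04 ± 0.46. Other members differed by more: over the 43 tested the difference ran from -3.38 to 2.40, with a median of 0.13. The ratio of mutant to wildtype had the same direction in both batches for 30 of the 42 tested members with reads in both.

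In strontium-activated eggs, Psma7 was lower and Psme3 higher than in wildtype eggs, each by more than in mutants. In all, 3 members rose and 2 fell, and 38 of the 43 tested did not pass, where 13% of all genes passed, 5.66% higher and 7.33% lower. The members' median log2 fold change was 0.10, against 0.15 over all genes; it was -0.18 without the wildtype sum of batch 2, -0.08 without that of batch 1 and 0.45 with eggs thinned to equal depth, so it has no settled sign. This comparison shares its wildtype sums with that of mutants, and activated eggs form a single sum on a plate of their own in batch 2, so that plate and treatment cannot be told apart. The submitters give these eggs a number of growths that is not defined, 1 for 8 eggs and 2 for 9 eggs, and the sum holds both kinds. The spread was taken from the other groups.

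Psma7 held 61.6 CPM in activated eggs, against 534 CPM in the wildtype sum of batch 2 and 414 CPM in that of batch 1. The fitted log2 fold change was -3.17 ± 0.36 (edgeR adjusted p = 2.8e-05), and within batch 2 the ratio was -3.12. On the scale per kilobase Psma7 ranked 16th of the 48 members in activated eggs, 4th to 10th in mutant sums, and 2nd and 1st in the wildtype sums of batches 1 and 2. Psmd1, a scaffold subunit of the base, held 152 CPM in activated eggs, against 346 CPM in wildtype of batch 2 and 556 CPM in wildtype of batch 1 (-1.29 ± 0.35, edgeR adjusted p = 0.0199). Its exons overlap Gm21972 on the same strand and Htr2b on the other, so reads of these genes may be among its counts. The Psmd1 call was lost with sums per plate (edgeR adjusted p = 0.106).

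Psme3 held 298 CPM in activated eggs, against 63.1 CPM in wildtype of batch 2 and 126 CPM in wildtype of batch 1 (2.24 ± 0.31, edgeR adjusted p = 0.00016). Psmc2 held 27 CPM in activated eggs and 3.21 CPM in wildtype of batch 2 (2.16 ± 0.65, edgeR adjusted p = 0.0371), and Psmd10 held 50.9 CPM in activated eggs and 15.2 CPM in wildtype of batch 2 (1.39 ± 0.45, edgeR adjusted p = 0.0463). The Psmc2 and Psmd10 calls depend on few sums: without the wildtype sum of batch 2 the values fell to 1.31 ± 0.68 for Psmc2 and 0.93 ± 0.50 for Psmd10 (edgeR adjusted p = 0.282 and 0.307). Psmd12 and Psmd5, higher in mutants, held 36.5 and 132.1 CPM in activated eggs, and their log2 fold changes over wildtype were 0.36 and 0.37 (edgeR adjusted p = 0.572 and 0.515). Without the batch term Psma7 alone passed.

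The difference between activated and mutant eggs was tested directly. Psma7 was lower in activated eggs than in mutants by a log2 fold change of -1.75 ± 0.31 (edgeR adjusted p = 0.00253), and Psme3 was higher by 1.09 ± 0.27 (edgeR adjusted p = 0.0244), where 4.84% of all genes passed, 1.42% higher and 3.43% lower. The other 41 tested members did not pass. The members' median was -0.44 (-0.12 with eggs thinned to equal depth), against 0.05 over all genes, and over the roles with 3 or more tested members the medians ran from -0.92 in the lid to 0.20 in the ATPase ring. For Psmd12 the difference was -0.98 (edgeR adjusted p = 0.0933). The Psme3 call was lost without M2 of batch 2 (0.94 ± 0.33, edgeR adjusted p = 0.126) and with sums per plate (1.06 ± 0.30, edgeR adjusted p = 0.0992).

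Single eggs show how these sums are made up, on the scale of raw CPM over eggs of at least 10000 counts. Psma7 was read in all 17 activated eggs, at a lowest, median and highest value of 30.4, 63.3 and 173 CPM, in 49 mutant eggs of batch 2 at 78.9, 207 and 577 CPM, and in 24 wildtype eggs of batch 2 at 111, 392 and 1129 CPM. In batch 1 it ranged over 56.1, 140.7 and 276 CPM in 9 mutant eggs and over 259, 367 and 636 CPM in 5 wildtype eggs. Mutant and wildtype eggs thus overlapped in both batches, in batch 1 only between 259 and 276 CPM. Psme3 had values of 117.3, 306 and 550 CPM in activated eggs, 0, 141.4 and 279 CPM in mutant eggs and 0, 36.5 and 130.3 CPM in wildtype eggs of batch 2, where 20 of 24 wildtype eggs held a read. Psmd12 had values of 5.64, 37.3 and 95.2 CPM in activated eggs, 0, 66.5 and 242 CPM in mutant eggs and 0, 13.4 and 120.4 CPM in wildtype eggs of batch 2, and 16 of 24 wildtype eggs held a read. In batch 1, where eggs were deeper, Psmd12 ran from 36.4 to 144.4 CPM in mutant eggs and from 21 to 31.9 CPM in wildtype eggs, and the ranges did not overlap. Wildtype eggs of batch 2 were the shallowest, with a median total of 207420 counts against 503732 to 796582 in the other groups of that batch. Over all eggs of batch 2, those under 10000 counts included, Psmd10 was read in 17 of 17 activated eggs, 46 of 52 mutant eggs and 13 of 24 wildtype eggs. The part of depth in these numbers of eggs with a read was not tested. For the low members this sparseness sets the limit: in batch 2, reads of Psmc2, Psmb4 and Psmb7 came from 4 of 24 wildtype eggs each, with 73.3%, 68.8% and 62.5% of them in 1 egg.

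**Figure D4:**
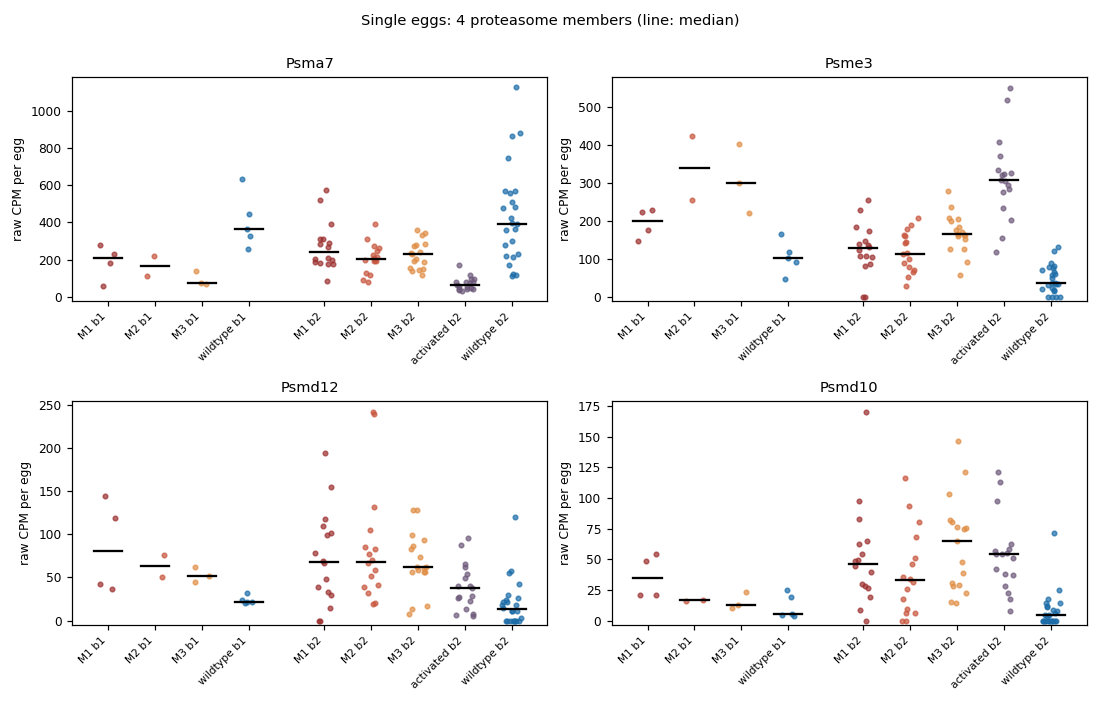
Raw CPM of Psma7, Psme3, Psmd12 and Psmd10 in each egg of at least 10000 counts, by group and batch (b1, b2), with the median as a line. Within batch 2 the Psma7 median is 63.3 CPM in activated and 392 CPM in wildtype eggs, and the Psme3 median is 306 CPM in activated and 36.5 CPM in wildtype eggs.

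Tissue-specific versions of core subunits were near absent in every group. Psma8, the germline counterpart of Psma7 known from testis, had 6 counts over all 107 eggs, and the immune counterparts Psmb8, Psmb9 and Psmb10 of the catalytic subunits had 11, 3 and 21. With a Poisson 95% interval these are raw levels of 0.0395 CPM (0.0145 to 0.0859) for Psma8, 0.0724 (0.0361 to 0.129) for Psmb8, 0.0197 (0.00407 to 0.0577) for Psmb9 and 0.138 (0.0855 to 0.211) for Psmb10, where the interval covers counting error only. The activator Psme1, which pairs with Psme2 in immune cells, had 11 counts. Psmb11, the thymus version of the chymotrypsin-like subunit, had 35 counts in 6 of 9 mutant eggs of batch 1, 21 counts in 8 of 52 mutant eggs of batch 2, 3 counts in activated eggs and 0 in the 29 wildtype eggs. A count of 0 allows up to 0.0829 raw CPM in the wildtype sum of batch 1 by a limit of 3 counts per sum, and 0.102 by the Poisson interval. The 0.555 raw CPM of mutants was 6.7-fold the first limit, a ratio that leaves out counting error in mutants. Psmb11 reached the test through its mutant sums, so its place among tested members is no sign of a difference. In batch 2 the mutants held 0.621 raw CPM. There the 0 of wildtype allows 0.552 by the limit of 3 counts and 0.678 by the Poisson interval, so no difference can be read at this depth. Psmb11 did not pass the test (edgeR adjusted p = 0.223), and the M3 sum of batch 2 held no read. With Psmb11 set to its batch 2 ratio over the limit of 3 counts (1.1-fold), the members' median in mutants was 0.21.

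Among 35 tested genes that act with the proteasome but carry other names, 4 rose and 2 fell in mutants, where 5.36% and 4.03% of all genes did; like the members, they were chosen with earlier results of these data known. Nfe2l1, the transcription factor known to induce proteasome genes when proteasome activity is short, held 264, 314 and 374 CPM in the M1, M2 and M3 sums of batch 1 and 213, 304 and 300.0 CPM in batch 2, against 141.8 and 119.7 CPM in wildtype (1.16 ± 0.19, edgeR adjusted p = 0.000945). All its mutant sums were above wildtype. Nploc4, a cofactor of the unfoldase VCP, rose by 1.35 ± 0.25, Faf1, another VCP partner, by 2.10 ± 0.41, and Akirin2, a nuclear import factor of proteasomes, by 0.92 ± 0.25 (edgeR adjusted p = 0.00275, 0.00332 and 0.0272). The shuttle Ubqln1 fell by 0.93 ± 0.21 and the ubiquitin receptor Adrm1 by 0.85 ± 0.23 on the log2 scale (edgeR adjusted p = 0.01 and 0.0224). In activated eggs 3 of the 35 rose and 5 fell, where 5.66% and 7.33% of all genes did: Faf1 (3.24 ± 0.55), the shuttle Rad23b (1.92 ± 0.34) and Nfe2l1 (1.14 ± 0.27) were higher, and Adrm1 (-2.47 ± 0.41), the ubiquitin ligase Ube3a (-1.99 ± 0.51), the proteasome-bound deubiquitinase Uchl5 (-1.93 ± 0.54), Ubqln1 (-1.41 ± 0.35) and the ubiquitin-activating enzyme Uba6 (-1.32 ± 0.41) were lower, with edgeR adjusted p from 0.00067 to 0.0401. Between activated and mutant eggs, Rad23b was higher by 1.60 ± 0.29 and Adrm1 lower by -1.61 ± 0.37 (edgeR adjusted p = 0.00289 and 0.0157). The median log2 fold change of the 35 was 0.11 in mutants and -0.16 in activated eggs.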

How the data were processed

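STAR and HTSeq are the tools, and GRCm38 and mm10 the builds, that the submitters' processing notes name. Not given in the sources used here are tool versions, the annotation and the use of strand. The deposited table holds raw counts per gene symbol and egg, not normalized, and all 107 egg columns were matched to labels by library name. The members and gene lists were chosen with earlier results of these data known.

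Eggs of each group and batch were added up. The model, with terms for group and batch, was run in edgeR 4.0.16 under R 4.3.3 with TMM scaling, filterByExpr (minimum count 10) and robust quasi-likelihood F tests on 3 residual degrees of freedom, with Benjamini-Hochberg adjustment over all genes tested and a threshold of 0.05. Mutant is the mean of M1, M2 and M3. SE is the log2 fold change divided by the square root of F. Plates (from library names) served as a block between mutant groups. P-values measure only the spread between sums, which may be technical. Values are relative to each total, so amounts per egg were not measured, and RNA amount and poly(A) tail length cannot be told apart.

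All 48 members were found in GENCODE M21, which gave positions, exon lengths, 3' UTRs (longest coding transcript) and shared 50-base stretches. Of the 43 tested, 9 share over 10% of these with other genes and 10 overlap another gene, so their counts are uncertain. Named were members that passed a test, the alternative core subunits with their standard counterparts, and the extremes of level. The alternatives comprised DESeq2 1.42.0, voom of limma 3.58.1, scaling by RLE or upper quartile, all genes unfiltered, other sets of eggs (without the 3 under 10000 counts, without 9 wildtype eggs of batch 2 with over 35% of counts in 50 genes, or thinned to 60000 counts each), other sums, no batch term and each sum left out. The edgeR fit was tested on simulated data in which only genes with many reads were changed, so that test does not cover members with few reads. The 3' UTR window of Psma7 is not reported here.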

Additional observations from a re-analysis of the deposited data

Results flagged for a closer look

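Among the 13 members that passed for mutants as a whole or for activated eggs, the 6 mutant sums, the 5 wildtype eggs of batch 1 and the 4 M1 eggs of batch 1 were checked for a value far from the others. Of these 39 groups of values, 2 held such a value, where chance gives about 1 in 20. In M1 of batch 1, 1 egg held 197 raw CPM of Psmd3, far below the other 3. In wildtype of batch 1, 1 egg held 31.9 raw CPM of Psmd12, above the other 4, whose lowest value was 21 raw CPM.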

How the results depend on the processing

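The members called in mutant minus wildtype numbered 12, against 14 by DESeq2, 14 without a filter and 13 with eggs thinned to equal depth. They were 11 without the 3 eggs under 10000 counts, 9 without 9 wildtype eggs whose counts lie in few genes, 0 without a batch term, 5 with sums per plate and 5 to 13 with each sum left out. For activated minus wildtype the count was 5, with 9 by DESeq2, 8 with eggs thinned to equal depth, 1 without a batch term, 2 with sums per plate and 3 to 9 with each sum left out. For activated minus mutant it was 2, with 5 when thinned, 4 without a filter, 0 without a batch term, 1 with sums per plate and 1 to 3 with each sum left out. For M1 minus wildtype it was 9, with 14 without a filter, 0 without a batch term, 4 with sums per plate and 0 to 11 with each sum left out. For M2 minus wildtype it was 5, with 11 by DESeq2, 9 without a filter, 0 without a batch term, 3 with sums per plate and 1 to 8 with each sum left out. For M3 minus wildtype it was 5, with 8 by DESeq2, 8 without a filter, 0 without a batch term, 2 with sums per plate and 3 to 7 with each sum left out. For M3 minus M1 it was 0, with 1 by DESeq2, 1 without a filter and 0 with each sum left out. M2 minus M1 and the batch difference stayed at 0 with each sum left out, where the batch difference could not be fitted without a wildtype sum. The median level of tested members in wildtype was 10.0 CPM per kb and 13.9 with the longest transcript as length. The cause of these changes was not tested.

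No call on a member in mutant minus wildtype, activated minus wildtype or activated minus mutant changed sign under any alternative run; the signs of M1, M2 and M3 calls were not checked. In mutant minus wildtype, Psma7, Psmd12 and Psme3 lost their call under 1 of 20 alternatives, no batch term, Psmb3 and Psmd5 under 2, Psmd10 under 3, Psmc2 under 4, Psmd3 under 5, Psma5 and Psmb4 under 7, Psma6 under 9 and Psmb7 under 15. In activated minus wildtype, Psma7 kept its call under all 18, while Psme3 lost it under 1, Psmd1 under 2, Psmc2 under 6 and Psmd10 under 10. In activated minus mutant, Psma7 lost its call under 1 of 18 and Psme3 under 3. Thinning left 36 members testable, with a mutant median of 0.45 on the log2 scale against 0.22, which ran from 0.09 to 0.34 with each sum left out. Upper quartile scaling moved the median of all genes in activated minus wildtype to 0.30, against 0.15 with TMM, and the calls to 993 higher and 841 lower, against 783 and 1014. No paired analysis was possible because the sums carry no replicate numbers; the batch or plate that sums share was a term of the fits.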
